A study of Mus musculus with 24 samples.

Results

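The genes described here encode the proteins of the mitochondrial ribosome. They are all the gene symbols in the count tables that begin with Mrpl or Mrps followed by a digit. No matching symbol carried the -ps suffix that would have excluded it. There were 77 such genes among 24421 symbols, 48 named Mrpl for the large subunit and 29 named Mrps for the small subunit. All 77 passed the filter on low counts, which kept 14693 genes. From textbook homology, 46 of them have a counterpart in the bacterial ribosome and 30 are specific to mitochondria. Mrps36 was placed in neither class, since its product is now known as a subunit of the alpha-ketoglutarate dehydrogenase complex.

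The mitochondrial ribosome translates the few proteins that the mitochondrial genome encodes, all of which are core subunits of the respiratory chain and ATP synthase. Its RNAs are made inside the organelle, whereas every one of its proteins is encoded in the nucleus, translated in the cytosol and imported, so the nuclear genes are expressed apart from the rRNAs they join. Compared with its bacterial ancestor, the particle has less RNA and has gained proteins that bacteria lack. In macrophages, mitochondrial respiration is known to support the response to IL-4, while LPS is known to shift the cells toward glycolysis.

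The libraries were made from total RNA of bone marrow-derived macrophages (BMDMs), which are macrophages grown in culture from marrow precursors, of C57BL/6J mice aged 12 weeks. Cells of 2 genotypes, WT (wild type) and KO (OGT knockout), were compared in 3 states: without stimulus (M0), with 100 ng/ml LPS (M1) and with 10 ng/ml IL-4 (M2), both stimuli lasting 12 hours, with 4 libraries in each of the 6 groups. OGT adds the sugar O-GlcNAc to serines and threonines of intracellular proteins, and the series asks how its loss changes macrophage activation. Libraries are called by the last digit of their label code, 1 to 4 in WT and 5 to 8 in KO. The sources used here do not give how Ogt was deleted, which part of the gene was removed or in which cells. Nor do the labels say whether the 4 libraries of a group came from separate mice or cultures, so the p-values here rest on the spread among libraries, which may be technical.

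In 21 libraries, between 63429271 and 94942464 reads were counted on genes, of which 156855 to 317798 fell on the 77 genes. WT LPS libraries 1 and 2 and KO LPS library 7 held only 172771 to 209368 counts, with 491 to 626 on the 77 genes. Values are given as counts per 1e6 counts (CPM), computed with TMM-scaled library sizes. The limit that a count of 0 allows (3 counts) was 0.0303 to 0.055 CPM in the 21 deeply sequenced libraries and 15.5 to 17.9 CPM in the other 3, called the shallow libraries below, and covers counting error only. The Ogt transcript was lower in KO in every state but was not absent, with means (n = 4) of 49.6 ± 2.64 CPM (SD) in WT and 35.4 ± 1.13 CPM in KO at M0, 59.2 ± 5.93 and 40.6 ± 8.91 CPM after LPS, and 54.4 ± 4.05 and 33.3 ± 1.24 CPM after IL-4. All 8 macrophage markers measured were detected in every group, while T and NK cell markers summed to at most 1.53 CPM and erythroid markers to at most 0.395 CPM. The highest sums were 5.98 CPM for B cell, 4.68 for dendritic cell, 25.1 for mast cell and basophil and 62.9 for neutrophil markers. Endothelial markers summed to 85.4 to 125.6 CPM in KO LPS, against 20.6 to 48.9 CPM in WT LPS. Marker sums differed between genotypes. At M0 the macrophage markers summed to 11760.5 to 13368 CPM in WT and 7300 to 9034 CPM in KO, and the 7 stromal markers (such as Col1a1 and Dcn) to 9668 to 11315 CPM in WT and 13822 to 18618 CPM in KO. In bulk RNA, fewer cells of a type and less RNA per cell cannot be told apart.

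The promoters of 68 of the 77 genes were in the RefSeq table (GRCm38.p6), as 74 windows running from 250 bases before the start site to 50 after it. Motifs of 3 factor families that are known at promoters of mitochondrial protein genes were searched on both strands, and no motif contains the letters of another: GCGCNTGCG for NRF1, CCGGAAGT for ETS-family factors and AAGATGGCG for YY1. The NRF1 motif was in 24.3% of the 74 windows, against 6.31% of all 32851 promoters in the table. The ETS motif was in 16.2% against 3.89%, and the YY1 motif in 10.8% against 1.4%. In all, 35 genes carried at least 1 of these motifs, with the NRF1 motif in 18 genes (13 Mrpl and 5 Mrps). Shown here are the windows of a leading gene of the IL-4 response (Mrpl12), of 3 that led the LPS response (Mrpl52, Mrpl30 and Mrpl39) and of a gene named Mrps whose protein sits in the large subunit (Mrps18a), with the matched motif in capitals. Every window shown holds a motif, but other leading genes, such as Mrps25, Mrpl15 and Mrpl13, are not among the 35. Whether a motif goes with a larger response was not tested. The windows lie at chr11:120484387-120484686, plus strand (Mrpl12), chr14:54426659-54426958, plus strand (Mrpl52), chr1:37890227-37890526, plus strand (Mrpl30), chr16:84735195-84735494, minus strand (Mrpl39) and chr17:46110754-46111053, plus strand (Mrps18a).
Mrpl12: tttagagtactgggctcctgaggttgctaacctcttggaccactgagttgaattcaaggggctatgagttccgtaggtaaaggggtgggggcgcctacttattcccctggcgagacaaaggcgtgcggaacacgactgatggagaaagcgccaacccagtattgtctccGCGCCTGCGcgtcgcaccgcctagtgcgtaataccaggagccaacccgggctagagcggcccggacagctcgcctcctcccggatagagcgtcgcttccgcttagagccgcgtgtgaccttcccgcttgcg
Mrpl30: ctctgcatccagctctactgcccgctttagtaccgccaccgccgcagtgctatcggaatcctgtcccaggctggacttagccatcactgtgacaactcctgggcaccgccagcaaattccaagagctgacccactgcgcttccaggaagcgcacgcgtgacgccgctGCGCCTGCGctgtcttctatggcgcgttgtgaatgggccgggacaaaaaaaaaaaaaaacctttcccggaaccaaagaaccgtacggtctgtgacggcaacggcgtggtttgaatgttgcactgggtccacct
Mrpl39: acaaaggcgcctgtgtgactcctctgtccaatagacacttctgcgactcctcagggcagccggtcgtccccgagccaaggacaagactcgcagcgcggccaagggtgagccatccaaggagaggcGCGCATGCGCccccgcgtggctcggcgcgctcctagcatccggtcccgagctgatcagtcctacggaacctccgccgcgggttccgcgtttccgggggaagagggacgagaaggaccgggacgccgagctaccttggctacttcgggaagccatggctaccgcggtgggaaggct
Mrpl52: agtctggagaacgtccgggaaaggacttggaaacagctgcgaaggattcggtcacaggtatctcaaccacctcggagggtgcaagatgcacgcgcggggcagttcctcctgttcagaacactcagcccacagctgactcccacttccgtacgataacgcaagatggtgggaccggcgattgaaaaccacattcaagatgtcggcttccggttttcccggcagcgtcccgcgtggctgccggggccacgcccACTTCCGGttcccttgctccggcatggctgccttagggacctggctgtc
Mrps18a: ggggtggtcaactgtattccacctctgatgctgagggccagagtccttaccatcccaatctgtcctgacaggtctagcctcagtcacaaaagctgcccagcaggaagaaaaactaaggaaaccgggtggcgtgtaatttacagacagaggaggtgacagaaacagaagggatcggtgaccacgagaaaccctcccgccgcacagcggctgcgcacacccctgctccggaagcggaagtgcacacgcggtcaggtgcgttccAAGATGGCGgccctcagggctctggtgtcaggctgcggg
The capitals mark an NRF1 motif in Mrpl12 (bases -81 to -73 from the start site), Mrpl30 (-83 to -75) and Mrpl39 (-125 to -116, where matches on the opposite strands overlap), an ETS motif on the minus strand in Mrpl52 (2 to 9), and a YY1 motif in Mrps18a (12 to 20). Such a match is a run of letters and not a shown binding site.

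Levels of different genes were compared as CPM per kilobase of coding sequence. In WT M0 cells the median was 55.6 for the 48 Mrpl genes and 56.2 for the 29 Mrps genes, so the subunits were at a similar level. Single genes were spread much more widely. Mrpl33, a small protein with a bacterial counterpart, had the highest level at 376, followed by Mrps21 at 251 and Mrpl52 at 161. The lowest were Mrps31 at 10.1, Mrpl47 at 10.8, Mrps22 at 11.3 and Mrpl1 at 12.2. The length used is the coding length of the annotation, so a gene whose transcripts end far beyond the coding part can rank too high.

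IL-4 raised nearly the whole family. Compared with M0, 74 of 77 genes were called higher in WT (46 Mrpl and 28 Mrps) and 61 in KO (38 Mrpl and 23 Mrps), and none was called lower in either genotype (edgeR's quasi-likelihood test, Benjamini-Hochberg adjusted p under 0.05 over all 14693 genes). Of all genes tested, 30.9% were called higher and 29.3% lower in WT, and 26.0% higher and 25.2% lower in KO. The count of 0 lower was also 0 at an unadjusted p under 0.05 and with DESeq2. The family's median log2 fold change was 0.48 in WT (0.48 for Mrpl, 0.43 for Mrps) and 0.30 in KO (0.30 and 0.28), beside a median of -0.01 in WT and -0.02 in KO over all genes. In 70 genes in WT and 57 in KO, all 4 IL-4 libraries lay above all 4 M0 libraries, which held for 29.8% and 25.2% of all genes. The 61 genes called in KO were all among the 74 called in WT. Mrpl14, Mrpl33 and Mrps21 were called in neither. DESeq2 called 61 genes in WT and 34 in KO.

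**Figure D1:**
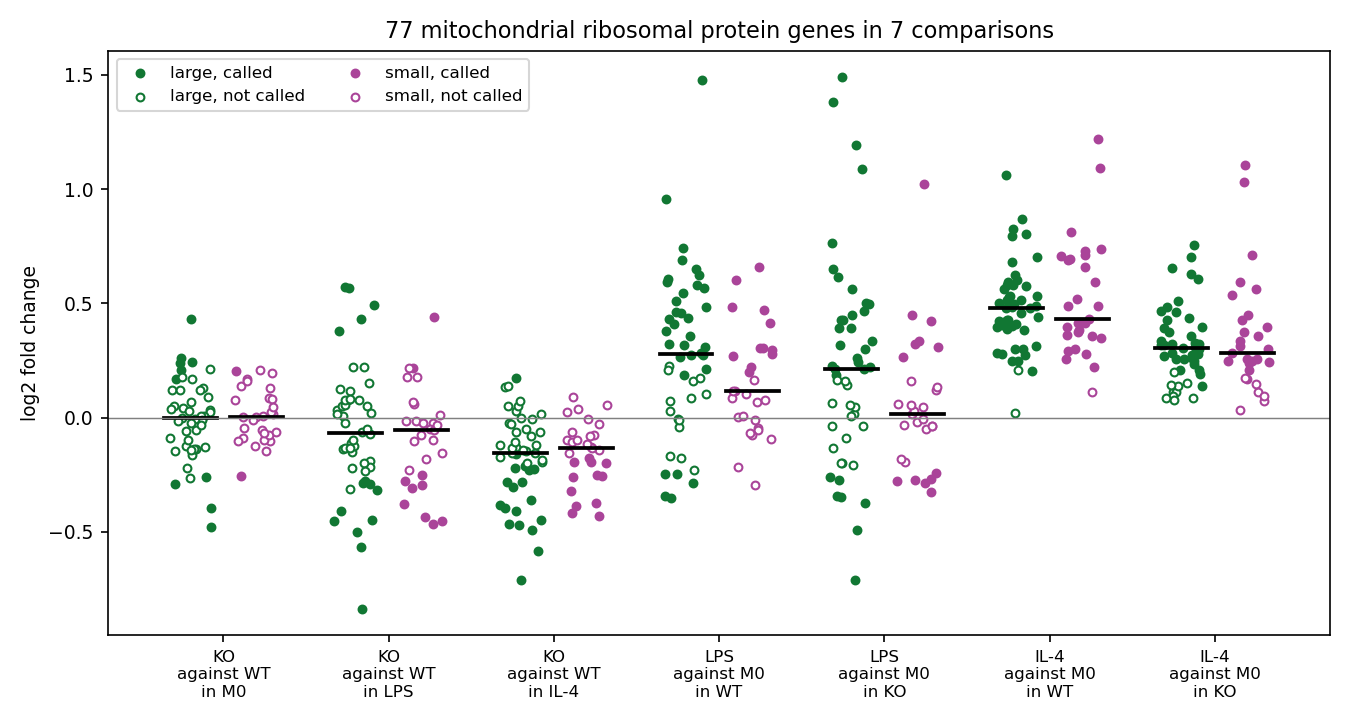
Fitted log2 fold changes (y axis) of the 77 genes for both stimuli against M0 (WT, then KO) and for KO against WT in each state, with Mrpl and Mrps genes side by side. Filled points are genes called at an adjusted p under 0.05, and the lines are medians, which for IL-4 lie at 0.48 (Mrpl) and 0.43 (Mrps) in WT and at 0.30 and 0.28 in KO; the LPS columns shift downward as a whole when library totals alone are used for scaling.

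Mrps25, a mitochondria-specific protein of the small subunit, had the largest change. It was at 27.2, 32.1, 28.3 and 29.2 CPM in WT M0 and 65.8, 72.5, 65.2 and 68.7 CPM in WT IL-4, and at 27.6, 24.6, 25.7 and 27.6 CPM in KO M0 and 58.8, 59.8, 51.5 and 56.8 CPM in KO IL-4. Every IL-4 library was above every M0 library of either genotype. The log2 fold change was 1.22 ± 0.0735 (SE) in WT (adjusted p = 2.81e-13) and 1.11 ± 0.0735 in KO (2.66e-12), by edgeR's quasi-likelihood test. Mrps25 lies at chr6:92169512-92184023 on the minus strand (GRCm38.p6), where 3533 of its exon bases overlap exons of Nr2c2 on the opposite strand. Since the sources used here do not give the strand setting of the counting, reads of the pair cannot be told apart there. Nr2c2 moved the other way, by -0.55 in WT and -0.35 in KO on the log2 scale, and 17 of the 77 genes share exon bases with another gene.

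Mrpl12 forms the flexible stalk of the large subunit and also binds the mitochondrial RNA polymerase. Its WT libraries were at 48.4, 58.4, 51.01 and 48.8 CPM in M0 and 109, 119.9, 97.5 and 106 CPM in IL-4. In KO it was at 52.5, 50.1, 50.6 and 57.2 CPM in M0 and 82.8, 82.01, 77.2 and 83.03 CPM in IL-4. The M0 libraries of both genotypes overlapped, and the IL-4 libraries of KO all lay between the M0 libraries and the WT IL-4 libraries. The increase was 1.06 ± 0.0763 in WT and 0.63 ± 0.0759 in KO on the log2 scale (adjusted p = 8.70e-12 and 1.63e-07, edgeR).

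Mrps28, the counterpart of the bacterial protein that helps to hold messenger RNA on the small subunit, rose by 1.09 ± 0.0972 in WT and 1.03 ± 0.0971 in KO. Mrpl15, a large subunit protein with a bacterial counterpart, went from 31.7 ± 2.20 to 57.9 ± 2.92 CPM in WT and from 31.8 ± 1.51 to 51.8 ± 1.79 CPM in KO (mean ± SD, n = 4), with no overlap between the states. Mrpl18, which in cytosolic form is also known in the heat shock response, rose by 0.80 and 0.65, and Mrps15, which has a bacterial counterpart that binds early in assembly, by 0.69 and 0.56. Mrps36, whose product belongs to the alpha-ketoglutarate dehydrogenase complex, rose by 0.74 ± 0.0621 and 0.59 ± 0.0619. The IL-4 calls of Mrps25, Mrpl12, Mrpl15, Mrpl18, Mrps15 and Mrps36 in both genotypes, and of Mrps28 in KO, held in every refit that left out 1 library and in every alternative run.

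**Figure D2:**
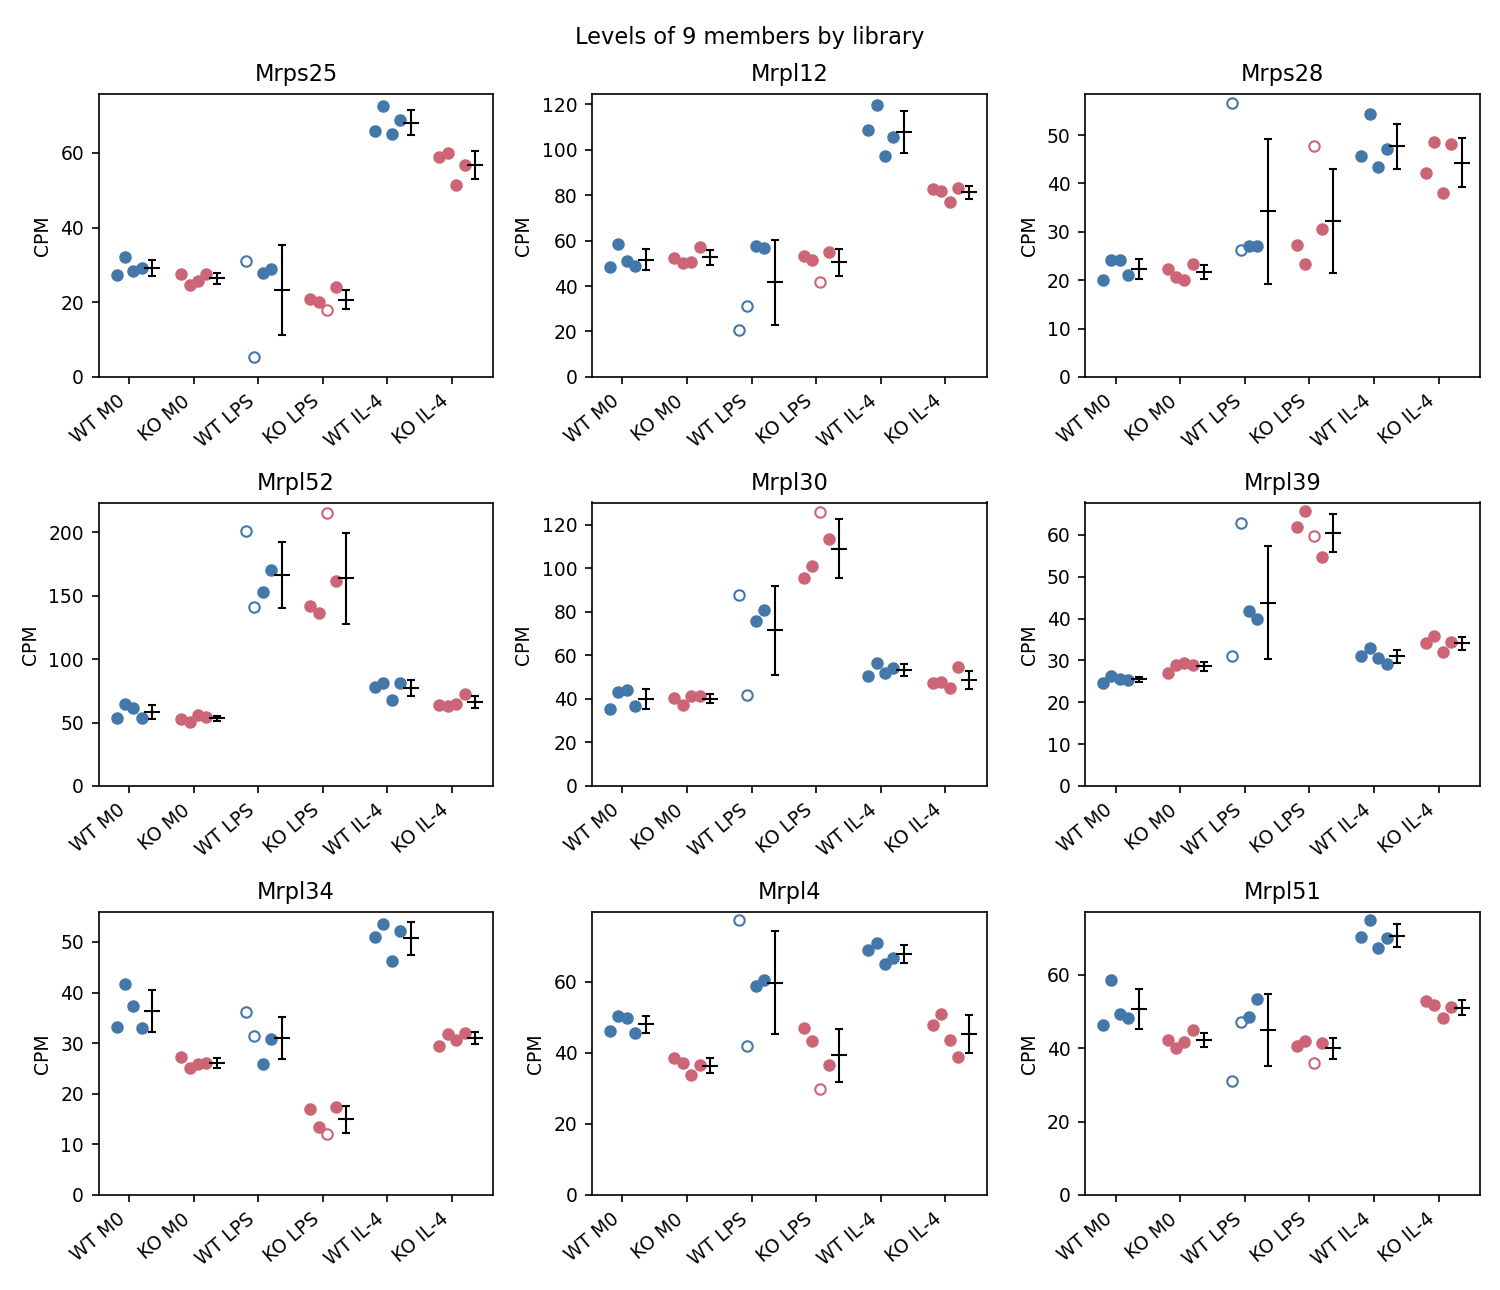
CPM of leading genes in all 24 libraries, by group, in blue for WT and red for KO, with the mean ± SD in black and the 3 shallow libraries as open circles. Mrps25 and Mrpl12 are highest in the IL-4 groups, Mrpl52 and Mrpl30 in the LPS groups, and Mrpl34 is lower in KO than in WT in every state.

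The IL-4 response was called smaller in KO for 2 genes of the family. The interaction, that is the KO response minus the WT response, had a median of -0.16 beside 0 over all genes and was negative in 76 of 77 genes, all measured in the same libraries. Of these values 0 were called higher and 2 lower, Mrpl12 at -0.44 ± 0.107 (adjusted p = 0.0442) and Mrps35, a mitochondria-specific small subunit protein, at -0.38 ± 0.0951 (0.0491). At an unadjusted p under 0.05 there were 0 higher and 22 lower, and DESeq2 called 0 in either direction, as did the fit with adjacent label numbers summed. Over all genes 0.470% were called higher and 0.667% lower. Both calls stood close to the threshold: no gene was called lower without any 1 of WT M0 libraries 1, 3 and 4, KO M0 libraries 5, 7 and 8, WT IL-4 libraries 1, 2 and 4 or the 4 KO IL-4 libraries, 1 was called without WT IL-4 library 3, and 5 without WT M0 library 2. With the label number as a block, 12 were called lower. That block covered WT as well as KO, and in WT the numbers did not pair the libraries by the check described under the processing.

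LPS changed the family in both directions. With TMM scaling of all 24 libraries, more genes were called higher than lower. In WT, 41 genes were called higher (29 Mrpl and 12 Mrps) and 5 lower, all 5 of them Mrpl. In KO, 33 were higher (26 Mrpl and 7 Mrps) and 14 lower (8 Mrpl and 6 Mrps). Of all genes, 29.4% were called higher and 28.3% lower in WT, and 31.2% and 36.0% in KO. The median log2 fold change was 0.22 in WT (0.28 for Mrpl, 0.11 for Mrps) and 0.12 in KO (0.21 and 0.02), beside -0.01 and -0.07 over all genes. All LPS libraries lay above all M0 libraries for 20 genes and below for 2 in WT (15.4% and 23.5% of all genes), and above for 23 and below for 12 in KO (19.2% and 28.5%). The calls shared by both genotypes were 30 higher and 5 lower.

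How many genes of the family rose after LPS depended on the scaling of the libraries. When library totals alone were used, the median of all genes moved to -0.37 in WT and -0.50 in KO, the family's own median turned negative (-0.13 and -0.32), and 12 genes were called higher and 29 lower in WT and 8 and 52 in KO. The distance from the family's median to that of all genes was 0.24 in WT and 0.19 in KO with TMM scaling, and 0.24 and 0.18 with totals alone, so the family sat above the typical gene under both. Leaving out 1 M0 library moved the median of all genes down, to between -0.15 and -0.14 in WT and between -0.23 and -0.22 in KO. The family's own median was then 0.05, 0.12, 0.11 and 0.07 in WT without M0 libraries 1, 2, 3 and 4. In KO it turned negative, at -0.063, -0.064, -0.059 and -0.012 without M0 libraries 5, 6, 7 and 8. In WT 25 genes were called higher without M0 library 1, 3 or 4. Called lower were 14, 11, 8 and 13 without M0 libraries 1, 2, 3 and 4. Without LPS library 3 or 4, which left the other as the only deep WT LPS library, 0 and 1 were called lower. The median of all genes was -0.02 and -0.01 there. In KO, 18, 18, 18 and 20 were called higher and 25, 25, 26 and 24 lower without M0 libraries 5, 6, 7 and 8, and 7 and 6 lower without LPS libraries 5 and 6. DESeq2 called 21 higher in WT and 19 in KO. Without the 3 shallow libraries the counts were 41 higher and 4 lower in WT and 38 higher and 13 lower in KO.

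The leading increases after LPS were mainly of large subunit genes, but the small subunit gene Mrps18c was among them (0.66 in WT and 1.02 in KO). Mrpl52, a mitochondria-specific protein of the large subunit that lies at chr14:54426909-54429750 on the plus strand, was at 53.9, 64.99, 61.5 and 53.5 CPM in WT M0 and 201, 141, 153 and 170.3 CPM in WT LPS. In KO it was at 53.1, 50.1, 55.6 and 53.97 CPM in M0 and 142, 136, 215 and 162 CPM in LPS. Every LPS library, the shallow ones included, was above every M0 library. The log2 fold change was 1.48 ± 0.0912 in WT (adjusted p = 1.74e-13) and 1.49 ± 0.0850 in KO (2.08e-14), by edgeR's quasi-likelihood test. Mrpl52 alone made up 4.73% to 7.33% of the family's summed CPM in LPS libraries, and 1.93% to 2.30% in all others.

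Mrpl30, a large subunit protein with a bacterial counterpart, rose by 0.96 ± 0.0915 in WT and 1.38 ± 0.0836 in KO. Its deep libraries were at 75.7 and 80.7 CPM in WT LPS and 95.7, 101 and 114 CPM in KO LPS, against 39.8 ± 4.56 and 39.98 ± 2.04 CPM in M0. Mrpl13, a large subunit protein with a bacterial counterpart, rose by 0.62 ± 0.0878 and 1.19 ± 0.0795, and Mrpl39, a mitochondria-specific protein related to threonyl-tRNA synthetase, by 0.69 ± 0.0717 and 1.09 ± 0.0640. The other leading increases were those of Mrpl32 (0.74 in WT and 0.65 in KO), whose maturation by a mitochondrial protease is known to precede ribosome assembly, Mrpl27 (0.65 and 0.76), which has a bacterial counterpart near the peptidyl transferase centre, Mrpl54 (0.61 and 0.45) and the small subunit gene Mrps18c (0.66 and 1.02). The calls of Mrpl52, Mrpl30, Mrpl39, Mrpl32, Mrpl27 and Mrps18c in both genotypes, of Mrpl13 in KO and of Mrpl54 in WT held in every alternative run, library totals alone included.

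The nearest genes on either side of the family, 150 in all, were called at shares near those of all genes: 45 were higher and 42 lower after LPS in WT (30% and 28%, beside 29.4% and 28.3% of all genes), and 47 and 55 in KO (31.3% and 36.7%, beside 31.2% and 36.0%). The neighbours of some genes called higher after LPS in both genotypes are given here, chosen after their values were seen. Of these genes, Mrpl4 was not among the leading increases. Mir155hg, the host transcript of miR-155, lies 2331 bases past Mrpl39 and changed by 8.07 in WT and 8.84 in KO on the log2 scale. Mitd1 lies 66 bases from the start of Mrpl30 and changed by 2.56 in WT and 2.43 in KO. Mmp14, a membrane-bound matrix protease, lies 1856 bases past Mrpl52 (1.86 in WT and 1.49 in KO), and Icam1, an adhesion molecule, 7146 bases past Mrpl4 (3.39 in WT and 4.28 in KO). Psma2, a proteasome subunit, lies 75 bases from Mrpl32 (0.79 in WT and 0.86 in KO). Other neighbours were lower: Matk, a tyrosine kinase, lies 1348 bases past Mrpl54 (-3.10 in WT and -3.60 in KO), Eme1, which overlaps Mrpl27 on the opposite strand, was at -1.17 in WT and -0.34 in KO, and Col14a1, a collagen gene beyond the end of Mrpl13, at -1.05 in WT and -0.61 in KO. Mtbp, which shares 330 exon bases with Mrpl13 on the opposite strand, and Helq, 29 bases from the start of Mrps18c, were called in neither genotype. Whether reads or regulation of neighbours have a part in these changes was not tested.

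The 5 genes called lower after LPS in both genotypes were Mrpl34, Mrpl28, Mrpl36, Mrpl42 and Mrpl23. Mrpl34, a small protein of the large subunit with a bacterial counterpart, was at 33.2, 41.8, 37.3 and 32.95 CPM in WT M0 and 36.1, 31.4, 25.8 and 30.7 CPM in WT LPS. In KO it was at 27.3, 25.1, 25.8 and 26.02 CPM in M0 and 17.04, 13.3, 11.96 and 17.5 CPM in LPS. The KO libraries of the states did not overlap, and the WT libraries did. The change was -0.35 ± 0.0977 in WT and -0.71 ± 0.0888 in KO. The WT calls of the 5 genes were not robust to single libraries: that of Mrpl34 was lost without LPS library 3, and those of the other 4 without LPS library 3 or 4. All 5 were called higher after IL-4 in WT, so their direction differed between the stimuli, which share the same M0 libraries. In KO, Mrpl28 (-0.49), Mrpl36 (-0.35) and Mrpl41 (-0.37) followed Mrpl34 among the decreases, and the small subunit genes Mrps25 (-0.29) and Mrps5 (-0.24) were also called lower, that of Mrps25 not without KO LPS library 6 and that of Mrps5 not without KO LPS library 5. Without KO numbers 5 and 6, the KO calls of Mrpl36, Mrpl41, Mrps25 and Mrps5 were lost, and 3 genes of the family were called lower in KO.

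**Figure D3:**
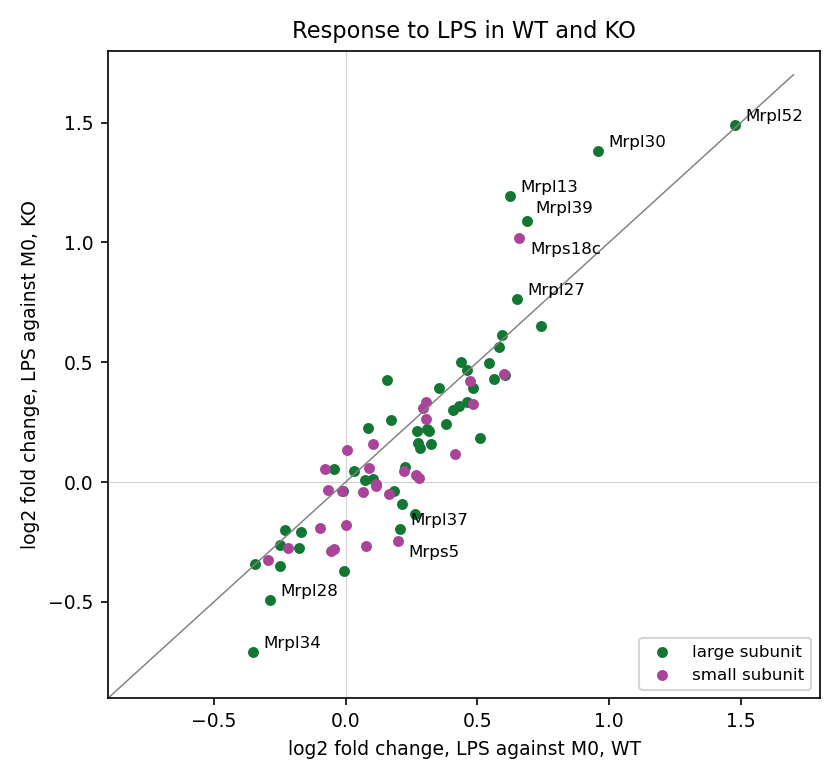
Log2 fold change after LPS in KO (y axis) against WT (x axis) for each of the 77 genes, Mrpl and Mrps in different colours, with the line of equal change. Mrpl52 lies on the line at 1.48 and 1.49, Mrpl13, Mrpl30 and Mrpl39 lie above it, and Mrps5 lies below 0 in KO only; values on both axes shift downward with library totals as the only scaling.

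The LPS response differed between genotypes for 7 genes, 3 with a larger and 4 with a smaller value in KO (6.62% and 4.79% of all genes were called in these directions). The larger ones were Mrpl13 with an interaction of 0.57 ± 0.120 (adjusted p = 0.00250), Mrpl30 with 0.42 ± 0.126 (0.0290) and Mrpl39 with 0.40 ± 0.0974 (0.00825), all by edgeR. The smaller ones were Mrps5, which forms part of the messenger RNA path of the small subunit, with -0.44 ± 0.107 (0.00744), Mrpl19 with -0.40 ± 0.106 (0.0148), Mrpl37 with -0.40 ± 0.124 (0.0338) and Mrpl11, next to the stalk, with -0.30 ± 0.0973 (0.0420). Mrps5 was at 18.5, 21.4, 20.6 and 20.04 CPM in WT M0 and 41.3, 41.8, 21.99 and 22.9 CPM in WT LPS, and at 20.1, 19.2, 20.7 and 20.02 CPM in KO M0 and 16.4, 16.6, 11.96 and 17.7 CPM in KO LPS. WT LPS libraries 1 and 2 and KO LPS library 7 are shallow, with 8, 8 and 2 counts of Mrps5. With TMM scaling, Mrps5 was the only gene of the 77 called higher after LPS in WT (0.20) and lower in KO (-0.24). The KO call was lost without KO numbers 5 and 6, with adjacent label numbers summed and with DESeq2. With library totals alone, the median of all genes after LPS in WT moved from -0.01 to -0.37. The number of smaller responses was 10 without WT M0 library 2 and 7 without KO M0 library 7, but 1 without WT LPS library 3 or 4 and 2 without KO LPS library 5, while DESeq2 called 0. The label number as a block gave 14, with WT blocked too, although its numbers did not pair the libraries by the check used. Of the larger responses, that of Mrpl30 was not called without any 1 of WT M0 libraries 2 and 3, the 4 KO M0 libraries and WT LPS library 3. With adjacent label numbers summed, 0 genes were called in either direction.

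At rest, few genes of the family differed between genotypes. In M0, 7 genes were called higher in KO (6 Mrpl and 1 Mrps) and 5 lower (4 Mrpl and 1 Mrps), which is 9.09% and 6.49% of the family, beside 11.8% and 10.5% of all genes. The median was 0.00 beside 0.02 over all genes. The values of the genotypes did not overlap for 8 genes that were higher and 5 that were lower (13.5% and 13.6% of all genes). Mrpl1, one of the large subunit's rRNA-binding proteins with a bacterial counterpart, was at 12.2, 13.01, 11.3 and 12.9 CPM in WT and 15.9, 15.97, 17.6 and 17.1 CPM in KO. It was higher by 0.43 ± 0.0876 (adjusted p = 0.000905, edgeR). Mrpl3, which binds rRNA and has a bacterial counterpart, was higher by 0.24 ± 0.0614 and Mrpl38, a mitochondria-specific protein, by 0.26 ± 0.0667. The remaining increases, of Mrps7, Mrpl32, Mrpl47 and Mrpl39, lay between 0.17 and 0.24. The count of higher genes fell to 3, 4, 4 and 2 without WT M0 library 1, WT M0 library 4, KO M0 library 7 and KO M0 library 8, and was 1 with DESeq2, which called 3 lower.

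Of the decreases, Mrpl34 was at 33.2, 41.8, 37.3 and 32.95 CPM in WT M0 and 27.3, 25.1, 25.8 and 26.02 CPM in KO M0, without overlap, and fell by 0.48 on the log2 scale (adjusted p = 0.000100, edgeR). Mrpl4, a large subunit protein with a bacterial counterpart, was at 46.02, 50.4, 49.8 and 45.6 CPM in WT and 38.5, 37.1, 33.7 and 36.4 CPM in KO, also without overlap (-0.40 ± 0.0763). Mrpl24 (-0.29), Mrpl51 (-0.26) and the small subunit gene Mrps34 (-0.26) were lower as well. Mrps34 is needed for stability of the small subunit's rRNA, and its call was lost without WT M0 library 2 or 3 or KO M0 library 6 or 7. The calls of the other 4 held whichever library was left out, as did those of Mrpl1 and Mrpl3 among the increases. With adjacent label numbers summed, 1 gene was called higher (Mrpl1) and 1 lower (Mrpl34), and without KO numbers 7 and 8, 8 were called lower.

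After LPS, 7 genes were higher in KO than in WT (5 Mrpl and 2 Mrps) and 18 lower (10 Mrpl and 8 Mrps), beside 16.2% and 14.6% of all genes. The median was -0.06 (-0.07 for Mrpl, -0.05 for Mrps), beside 0.01 over all genes, but it turned to 0.0313 without KO numbers 5 and 6 (0.00452 over all genes) and was -0.11 without 7 and 8. Values did not overlap for 5 higher and 10 lower genes (8.04% and 4.83% of all genes). Mrpl39 (0.57 ± 0.0770, adjusted p = 4.97e-06), Mrpl13 (0.57 ± 0.0941, 5.37e-05), Mrpl1 (0.49), Mrps18c (0.44), Mrpl30 (0.43), Mrpl3 (0.38) and Mrps7 (0.22) were the higher ones, by edgeR. The fitted values rest on the 2 deep WT and 3 deep KO libraries, since a shallow library holds at most 39 counts for a gene. Mrpl13 was at 76.7 and 82.8 CPM in deep WT libraries and 115, 113 and 125 CPM in deep KO libraries. Without the 3 shallow libraries, 8 genes were higher and 17 lower.

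The largest decreases in KO after LPS were those of Mrpl34 (-0.84 ± 0.103, adjusted p = 1.27e-06), Mrpl37 (-0.57 ± 0.0971, 8.19e-05) and Mrpl4 (-0.50 ± 0.0962, 0.000284), by edgeR. Mrpl34 was at 25.8 and 30.7 CPM in deep WT libraries and 17.04, 13.3 and 17.5 CPM in deep KO libraries. Mrpl11 (-0.45), Mrps5 (-0.45), Mrpl19 (-0.41), Mrps34 (-0.47), Mrpl24 (-0.45) and Mrps17 (-0.44) came next. The count of lower genes was 9 without WT LPS library 4, 10 with DESeq2 and 8 when adjacent label numbers were summed to 2 libraries per group. Macrophage markers summed to 15426 to 15959.9 CPM in WT and 8671 to 10652 CPM in KO in these libraries, and the 7 stromal markers, all but 1 of them over 1 CPM, to 10733 to 13667 and 15584 to 17773 CPM, and their part in the result was not tested.

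The most calls between genotypes came after IL-4, nearly all in one direction. In KO, 31 genes were called lower (19 Mrpl and 12 Mrps) and 1 higher, beside 18.2% lower and 17.9% higher over all genes. The median was -0.15 (-0.15 for Mrpl, -0.13 for Mrps) beside 0.01 over all genes, and 65 of 77 values were negative. All 4 KO libraries lay below all 4 WT libraries for 30 genes, and above for 1 (19.8% and 17.3% of all genes). Of the 31, 26 had not been called in M0, and 16 were also called lower after LPS. DESeq2 called 15 lower, and 11 were called when adjacent label numbers were summed. When 1 library was left out, 24 to 34 were called lower.

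Mrpl34 was at 51.03, 53.6, 46.2 and 52.1 CPM in WT IL-4 and 29.4, 31.7, 30.6 and 32.03 CPM in KO IL-4, a change of -0.71 ± 0.0789 (adjusted p = 3.22e-07, edgeR). Mrpl4 was at 68.8, 70.9, 64.97 and 66.6 CPM in WT and 47.9, 50.98, 43.5 and 38.8 CPM in KO, a change of -0.58 ± 0.0761 (2.87e-06). For neither gene did the genotypes overlap. Mrpl51, a mitochondria-specific protein, changed by -0.47 ± 0.0627, Mrpl24, a protein that starts large subunit assembly in bacteria, by -0.49 ± 0.0776, and Mrpl55 and Mrpl54, both mitochondria-specific, by -0.46 ± 0.0705 and -0.40 ± 0.0626. Mrpl12 was lower by -0.41 ± 0.0754 (0.000170), and its M0 difference between genotypes was 0.03 ± 0.0759 (0.844). Among Mrps genes the largest decreases were those of Mrps17 (-0.43), Mrps34 (-0.42), Mrps18a (-0.39) and Mrps35 (-0.38). Mrpl3 was the only gene called higher (0.17 ± 0.0611, 0.0298), and it was not called without any 1 of the 4 WT IL-4 libraries or KO IL-4 library 5 or 6.

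**Figure D4:**
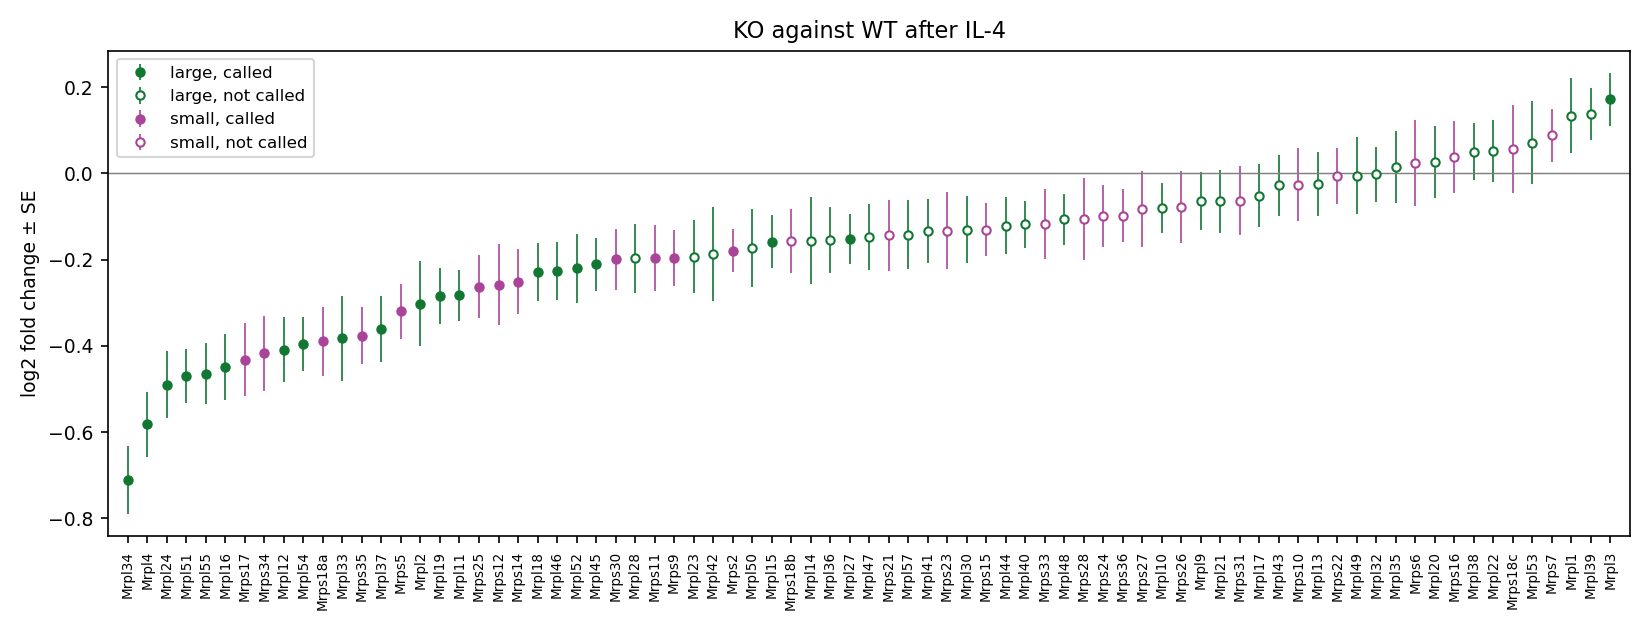
Log2 fold change of KO against WT after IL-4 for each of the 77 genes, in order of size, with bars of 1 SE and filled points for genes called at an adjusted p under 0.05. The values run from -0.71 (Mrpl34) to 0.17 (Mrpl3), and 65 lie below 0.

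Mrpl34, Mrpl4, Mrpl24, Mrpl51 and Mrps34 were called lower in KO in all 3 states, and Mrpl3 was called higher in all 3. For Mrpl34 the differences were -0.48 in M0, -0.84 after LPS and -0.71 after IL-4, and for Mrpl4 they were -0.40, -0.50 and -0.58. Each state has its own libraries, but the KO libraries of 1 label number deviated together across states, so the 3 comparisons are not independent. Genes of cell division moved in the same direction as the family in IL-4: of 28 genes of mitosis and DNA replication, 26 were called higher after IL-4 in WT, 23 in KO, and 27 lower in KO than in WT after IL-4, with a median of -0.44 (30.9%, 26.0% and 18.2% of all genes were called in these directions). In M0, unlike the family (5 of 77 lower, median 0.00), 21 of the 28 were called lower in KO and 0 higher, with a median of -0.25 (10.5% of all genes were lower). In KO against WT after LPS, 16 of the 28 were lower and 2 higher (14.6% and 16.2% of all genes). Of 72 cytosolic ribosomal protein genes, 64 were called higher after IL-4 in WT, 35 in KO, and 47 lower in KO than in WT after IL-4, with a median of -0.25. After LPS, 26 of the 28 division genes were called lower in each genotype, beside 28.3% of all genes in WT and 36.0% in KO. The family's median after LPS was above 0 with TMM scaling of all 24 libraries and below 0 with library totals alone. In KO it was also below 0 with TMM scaling when any 1 KO M0 library was left out. After IL-4, macrophage markers summed to 5547 to 6175 CPM in WT and 4947 to 5209.9 CPM in KO, and stromal markers to 7076 to 7574 and 10409 to 13760.4 CPM. The part of these markers and of cell division in the results on the family was not tested.

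Summed over its genes, the large subunit was at 1714 ± 132 CPM (SD, n = 4) in WT M0, 2069 ± 110.2 after LPS and 2397 ± 121 after IL-4. In KO it was at 1677 ± 39.3, 2043 ± 73.4 and 2118 ± 80.6 CPM. The small subunit was at 886 ± 70.5, 1018 ± 34.4 and 1258 ± 69.3 CPM in WT, and 885 ± 27.2, 937 ± 40.7 and 1129 ± 47.2 CPM in KO. The subunits thus moved in near proportion with IL-4. All these sums use TMM scaling. With library totals alone the family's median log2 fold change after LPS was below 0 (-0.13 in WT and -0.32 in KO). The sum of the large over the small subunit was 1.93, 1.94, 1.92 and 1.95 in the WT M0 libraries and 1.92, 1.89, 1.91 and 1.91 in WT IL-4, and 1.92, 1.89, 1.90 and 1.87 in KO M0 and 1.87, 1.86, 1.89 and 1.88 in KO IL-4. These ratios overlapped between M0 and IL-4 in both genotypes, and between WT and KO in each state. After LPS the genotypes overlapped only through shallow KO library 7 (2.127, from 334 and 157 counts). The deep KO LPS libraries (2.17 to 2.24) all lay above the deep WT LPS libraries (2.089 and 2.133).

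**Figure D5:**
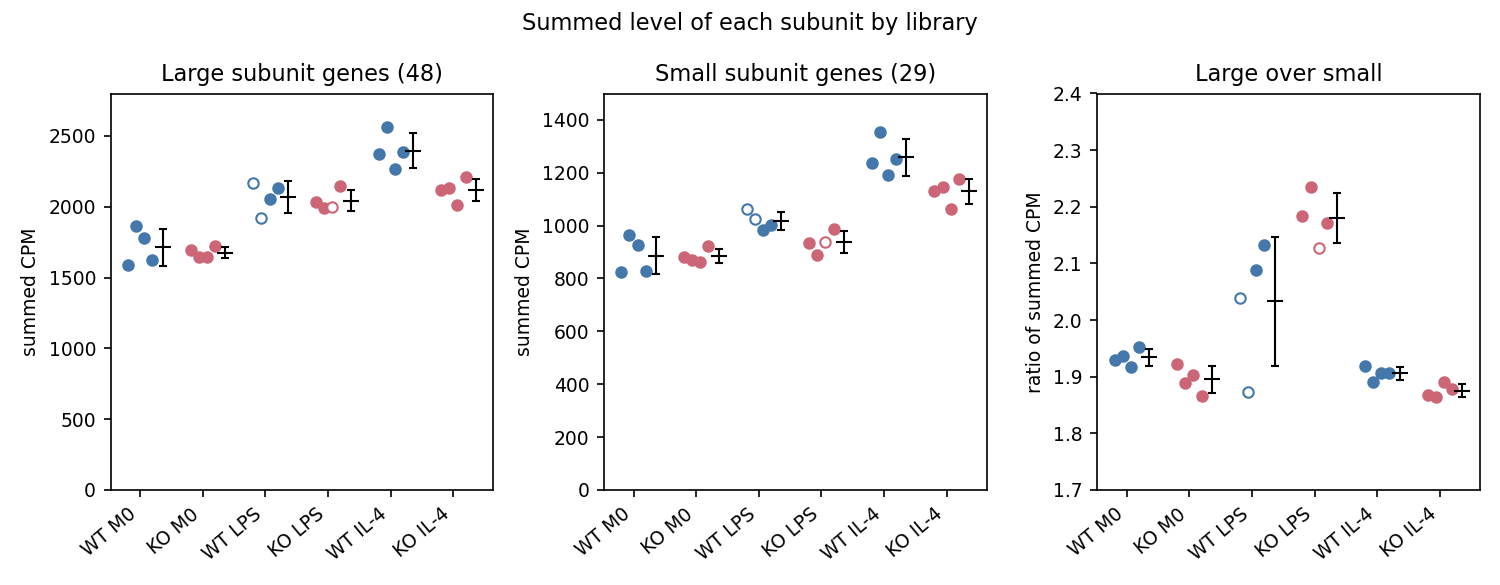
Summed CPM of the 48 Mrpl and the 29 Mrps genes and the ratio of the sums in each of the 24 libraries, by group, in blue for WT and red for KO, with the mean ± SD in black and the 3 shallow libraries as open circles. The sums are highest after IL-4, and the ratio is highest in the KO LPS libraries, at 2.18 ± 0.0443 against 1.90 ± 0.0236 in KO M0. The sums use TMM scaling, and with library totals alone the family's median change after LPS was below 0.

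After LPS the ratio was 2.04, 1.87, 2.09 and 2.13 in WT and 2.18, 2.24, 2.13 and 2.17 in KO. In KO all 4 LPS libraries lay above all M0 libraries, a log2 difference of 0.20. In WT the difference was 0.07 and the values overlapped, since shallow library 2 (1.87, from 367 and 196 counts) lay below the M0 libraries. The deep WT LPS libraries 3 and 4, at 2.09 and 2.13, lay above all WT M0 libraries (1.92 to 1.95). With 1 gene left out at a time, the log2 difference ranged in KO from 0.13 (without Mrpl52) to 0.27 (without Mrps18c), and it was 0.00 in WT without Mrpl52. Without Mrpl52, Mrpl30, Mrpl13 and Mrpl39, large subunit genes chosen because they had risen, which must lower the ratio, it was 0.00 in KO and -0.04 in WT. The median fold change after LPS in KO was 0.21 for Mrpl genes, of which 54.2% were called higher, and 0.02 for Mrps genes, of which 24.1% were. With the median of log2 CPM over the genes of each subunit in place of the sum, the KO difference was -0.03.

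The symbols do not always match the structure. Mrps30 and Mrps18a sit in the large subunit of the mammalian ribosome, and Mrps18a, Mrps18b and Mrps18c are a family of 3 related proteins that take different places in the particle. After IL-4, Mrps18b rose by 0.73 ± 0.0758 in WT and 0.38 ± 0.0754 in KO, Mrps18a by 0.40 ± 0.0800 in WT, with 0.11 ± 0.0802 in KO (adjusted p = 0.253, edgeR), and Mrps18c by 0.28 ± 0.103 and 0.26 ± 0.103. The Mrps18c calls were lost without any 1 of WT M0 libraries 1, 2 and 4, the 4 WT IL-4 libraries, the 4 KO M0 libraries, or KO IL-4 libraries 5, 6 and 8. After LPS, Mrps18c had the largest value of the 3, at 0.66 ± 0.121 in WT and 1.02 ± 0.110 in KO, Mrps18a at 0.47 ± 0.0954 and 0.42 ± 0.0863, and Mrps18b at 0.41 ± 0.0907 and 0.12 ± 0.0815 (0.203 in KO). With library totals alone, the calls of Mrps18a in both genotypes and of Mrps18b in WT after LPS were lost, and Mrps18b was called lower in KO (-0.32). Mrps30, also known as a programmed cell death protein, was higher after LPS in WT (0.27) and after IL-4 in WT (0.29), and lower in KO than in WT after LPS (-0.29) and IL-4 (-0.20). Its LPS call in WT was lost without any 1 of the 4 WT M0 libraries or WT LPS library 3 or 4, its KO call after LPS without WT LPS library 3 or 4 or KO LPS library 6 or 8, and its KO call after IL-4 without WT IL-4 library 1 or 2 or KO IL-4 library 8.

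Genes that work with the ribosome were taken from lists of textbook members, and their counts can be set beside the 30.9% (WT) and 26.0% (KO) of all genes called higher after IL-4 and the 18.2% called lower in KO than in WT after IL-4. All 6 ribosome subunits with other symbols were called higher after IL-4 in WT and 5 in KO, among them Ptcd3 (0.45 ± 0.0603 and 0.32 ± 0.0602) and Gadd45gip1 (0.69 ± 0.0949 and 0.38 ± 0.0948). Of 16 translation factors, 13 were higher after IL-4 in WT and 11 in KO, led by the elongation factors Gfm1 (0.93 ± 0.0591 and 0.73 ± 0.0588) and Tufm (0.62 ± 0.0571 and 0.44 ± 0.0570), and 8 were lower in KO than in WT after IL-4. Of 22 assembly factors, 13 were higher and 1 lower after IL-4 in WT, 6 higher and 2 lower in KO, and 12 lower in KO than in WT, so that the share higher in KO (27.3%) was near that of all genes, among them Rbfa, which matures the small subunit (-0.45 ± 0.0731), and Rnmtl1, an rRNA methyltransferase (-0.56 ± 0.100). Of 20 mitochondrial tRNA synthetases and related enzymes, 17 were higher after IL-4 in WT and 13 in KO, such as Gatc (0.64 ± 0.0634 and 0.60 ± 0.0635).

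After LPS, of the 20 tRNA synthetase genes, 0 were called higher (also 0 at an unadjusted p under 0.05) and 12 lower in KO (60%, beside 36.0% of all genes), with a median of -0.26. In WT 3 were higher and 5 lower (25%, beside 28.3% of all genes), with a median of 0.01. Tars2, the threonine enzyme, showed an interaction of -0.54 ± 0.122 and Ears2, the glutamate enzyme, of -0.50 ± 0.118. Of the assembly factors, 3 were higher and 8 lower in KO (36.4% lower) and 3 and 4 in WT (18.2% lower), at or below the share of all genes. Slirp, which stabilises mitochondrial messenger RNAs together with Lrpprc, rose by 1.03 ± 0.0936 in WT and 1.49 ± 0.0850 in KO, while Lrpprc fell in KO (-0.61 ± 0.0785), and both interactions were called (0.46 ± 0.128 and -0.46 ± 0.116). Pnpt1, a mitochondrial RNA-degrading enzyme, rose by 1.93 ± 0.0778 and 2.19 ± 0.0723. Of 15 transcription and RNA processing genes, 13 were higher after IL-4 in WT and 7 in KO (86.7% and 46.7%, beside 30.9% and 26.0% of all genes). Transcripts encoded by the mitochondrial genome itself were not analysed here.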

How the data were processed

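RNA sequencing of 24 BMDM libraries was analysed from the deposited counts of reads per gene symbol. Per the submitters' processing notes, the authors aligned reads with TopHat2 2.1.0 to mm10 (GRCm38) and made the raw, unnormalised counts with HTSeq 0.9.1. The sources used here do not give the annotation, the kit or the strand setting. The 5 summary lines, at 8.76% to 9.98% of a library's reads, were left out.

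A quasi-likelihood model of all 24 libraries, with 6 group means and 18 residual degrees of freedom, was fitted to the counts (edgeR 4.0.16 in R 4.3.3: TMM, filterByExpr by group, glmQLFit, glmQLFTest). A call is an adjusted p under 0.05 (Benjamini-Hochberg, over 14693 genes). Fold changes are given with their SE, CPM with the SD over 4 libraries. DESeq2 1.42.0 was an alternative, and limma 3.58.1 was loaded by edgeR. The procedure was tested on simulated data. The other alternatives were DESeq2's size factors, library totals alone, no filter on low counts, leaving out each library, the shallow libraries or pairs of KO label numbers, summing adjacent label numbers, and the label number as a block.

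Genes are named by a rule: for each contrast, the 6 called genes with the smallest adjusted p in each direction (with 5 CPM or more in whichever group was higher), plus Mrpl12, Mrps30, Mrps18a, Mrps18b, Mrps18c, Mrps36 and Ogt. Others named, such as Mrpl13 in WT, Mrps28 in WT and the genes of the neighbour and per-length comparisons, were chosen after their values were seen. The members and lists were chosen with earlier results of these data known. The label numbers were taken to pair KO libraries across states: over 7202 genes of at least 20 CPM, deviations of KO libraries of 1 number from their group means correlated at r = 0.109 to 0.636. In WT the range was -0.187 to 0.699. Coordinates and promoters are RefSeq's for GRCm38.p6, coding and exon lengths are GENCODE M21's. The NRF1 and YY1 motifs printed are shorter by 1 and 2 letters than those first listed, which were in 13 and 5 genes.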

Additional observations from a re-analysis of the deposited data

Results flagged for a closer look

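In groups of 4 libraries, the values of 39 named genes, the subunit sums and their ratio were examined for a library that stood far from the other 3 (252 groups; chance gives about 5% of groups, or 1 in 20). There were 24 such values, 12 of them in the 3 shallow libraries. In WT LPS library 1, Mrpl1 was at 5.16 CPM, Mrpl24 at 46.4 and Mrps28 at 56.7. In WT LPS library 2, Mrps25 and Mrpl18 were each at 5.23 CPM. In KO LPS library 7, Mrpl1 and Mrpl19 had 0 counts, which allows up to 17.9 CPM, Mrpl36 was at 5.98 CPM, Mrpl47 and Mrpl15 at 17.9, Mrpl3 at 83.7 and Mrpl38 at 95.7.

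Among the deep libraries, WT IL-4 library 2 stood high for Mrpl38 (45.3 CPM) and Mrps7 (65.5), and WT IL-4 library 3 low for Mrpl3 (78.4), Mrpl24 (23.7) and Mrpl18 (62.97). KO IL-4 library 8 stood high for Mrpl52 (72.8) and low for Mrps18b (42.8), and KO IL-4 library 7 low for Mrpl27 (51.1). KO LPS library 8 stood high for Mrpl41 (27.2) and Mrps35 (12.8). KO M0 library 7 stood low for Mrps30 (52.7) and KO M0 library 8 high for Mrps18b (39.4).

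The responses of the genotypes differed, by the interaction test, for 9 genes. For LPS the KO response minus the WT response was 0.57 for Mrpl13, 0.42 for Mrpl30, 0.40 for Mrpl39, -0.30 for Mrpl11, -0.40 for Mrpl19, -0.40 for Mrpl37 and -0.44 for Mrps5. For IL-4 it was -0.44 for Mrpl12 and -0.38 for Mrps35.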

How the results depend on the processing

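No paired analysis was possible because KO and WT share no label number, for the 3 comparisons of KO against WT. With the label number as a replicate block, 14 genes were called lower in the LPS interaction and 12 in the IL-4 interaction, and no other count moved by over 1.5 times. In WT, where the numbers do not pair the libraries by the check used, the blocked counts were 46 higher and 6 lower after LPS and 75 higher after IL-4. The blocked ratio differed by less than the spread between libraries in each of the 4 comparisons that allow it.

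When adjacent label numbers were summed, the counts were 1 higher and 1 lower for KO against WT in M0, 8 lower after LPS, 0 higher and 11 lower after IL-4, 1 lower for LPS in WT, 6 lower for LPS in KO, 0 and 0 in the LPS interaction and 0 lower in the IL-4 interaction. DESeq2 gave 1 higher and 3 lower in M0, 10 lower after LPS, 15 lower after IL-4, 21 higher for LPS in WT, 19 higher for LPS in KO, 34 higher for IL-4 in KO, and 0 lower in the LPS and IL-4 interactions. Library totals alone gave 12 higher and 29 lower for LPS in WT, 8 and 52 in KO, 12 lower in the LPS interaction and 1 lower in the IL-4 interaction. DESeq2's size factors gave 11 lower for LPS in WT and 1 lower in the IL-4 interaction, and no filter gave 1 lower there. Without the shallow libraries 5 were lower in the IL-4 interaction. Without KO numbers 5 and 6 there were 0 higher in KO against WT after IL-4, 3 lower for LPS in KO, 2 lower in the LPS and 4 in the IL-4 interaction. Without KO numbers 7 and 8 there were 8 lower in M0, 2 higher in KO against WT after IL-4, 8 lower for LPS in WT and 0 lower in the IL-4 interaction. Fewer libraries enter the last 3 fits, and the cause of the other shifts was not tested.

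With 1 library left out, KO against WT gave 2 to 7 higher and 4 to 7 lower in M0, 9 to 19 lower after LPS and 0 to 1 higher after IL-4. LPS gave 25 to 39 higher and 0 to 14 lower in WT and 18 to 36 higher and 6 to 26 lower in KO. The LPS interaction gave 2 to 3 higher and 1 to 10 lower, and the IL-4 interaction 0 to 5 lower.

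The log2 difference of the subunit ratio ranged, with 1 library left out, from -0.04 to -0.02 for KO against WT in M0, 0.06 to 0.13 after LPS, -0.03 to -0.02 after IL-4, 0.05 to 0.11 for LPS in WT, 0.19 to 0.21 for LPS in KO, -0.03 to -0.02 for IL-4 in WT and -0.02 to -0.01 for IL-4 in KO. With Mrps30 and Mrps18a counted as large subunit genes it was -0.0551 for KO against WT in M0 and -0.0547 after IL-4. As the median of log2 CPM it was 0.0364 in M0, -0.0404 after LPS and -0.0362 after IL-4, -0.0337 for LPS in KO, -0.0313 for IL-4 in WT and -0.10 for IL-4 in KO. For IL-4 in KO it was -0.000295 without KO numbers 5 and 6 and -0.0303 without 7 and 8. Without Mrpl52, Mrpl30, Mrpl13 and Mrpl39, an alternative chosen after seeing the data, it was -0.04499 for LPS in WT and 0.00151 in KO, and 0.00887 and 0.0335 when the shallow libraries were left out as well.

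With library totals alone, 9 values that were called under either scaling changed sign: after LPS in WT, Mrpl12 (-0.25), Mrps30 (-0.0837) and Ogt (-0.17), and after LPS in KO, Mrpl12 (-0.42), Mrps30 (-0.41), Mrps18a (-0.0194), Mrps18b (-0.32), Mrps36 (-0.38) and Ogt (-0.40). A value was counted as kept if it was called in the same direction in both runs, or called in neither, whatever its sign. Of 132 values of named genes and contrasts, 110 were kept there, 129 without the shallow libraries and 100 with label numbers summed, as were 108 of 130 with DESeq2. At the depth of the shallow libraries, most single genes could not be measured.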

Other observations

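Regulators known for mitochondrial biogenesis were examined as a list of 9 genes, chosen with earlier results of these data known. After IL-4, 6 were called higher in WT and 5 in KO (66.7% and 55.6%, beside 30.9% and 26.0% of all genes). Ppargc1b, a coactivator of genes of mitochondrial respiration, rose by 2.37 ± 0.145 on the log2 scale (SE) in WT and 2.54 ± 0.148 in KO. Myc, a transcription factor that drives growth genes, rose by 1.504 ± 0.0815 in WT and 0.85 ± 0.0804 in KO, and the difference between these responses was called (-0.65 ± 0.113, adjusted p = 0.00375, edgeR's quasi-likelihood test). After LPS, Pprc1, a coactivator related to Ppargc1b, was at 0.45 ± 0.101 in WT and -0.43 ± 0.0924 in KO (interaction -0.88 ± 0.137, adjusted p = 0.000147), and Ppargc1b rose by 0.85 ± 0.178 and 1.77 ± 0.158. Nrf1, whose motif was counted in the promoters, was not called in LPS or IL-4 against M0 in either genotype. Its values were -0.11 and -0.12 after LPS and 0.13 and 0.11 after IL-4, WT first. The list also holds Gabpa, an ETS-family factor, and Yy1. From M0 to IL-4, mean Gabpa went from 46.03 to 50.5 CPM in WT and from 50.05 to 54.6 CPM in KO. Mean Yy1 went from 71.3 to 81.4 CPM in WT and from 75.5 to 82.2 CPM in KO. M0 and IL-4 libraries overlapped only for Gabpa in KO. After LPS, shallow libraries included, the means were 36.7 and 47.1 CPM for Gabpa and 64.9 and 68.7 CPM for Yy1, WT first.

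The genes with a bacterial counterpart and the mitochondria-specific ones had similar medians. After IL-4 in WT, 43 of 46 genes with a counterpart and 30 of 30 mitochondria-specific genes were called higher, with medians of 0.47 and 0.46, and in KO 39 and 21, with medians of 0.31 and 0.28. In KO against WT after IL-4, 20 of 46 and 11 of 30 were called lower, with medians of -0.15 and -0.14.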
